A study of Mus musculus with 32 samples.

Results

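The guanylate-binding protein (GBP) genes Gbp2, Gbp2b, Gbp3, Gbp4, Gbp5, Gbp6, Gbp7, Gbp8, Gbp9 and Gbp10 were followed through the LPS response of macrophages with and without the nuclear receptor Nur77. They are 10 of the 25067 genes in the count table and were taken by symbol, with the transcript of the highest mean count kept for each gene. All 10 were among the 11186 genes tested, which had a mean level over 1 RPKM (read counts scaled to library size and transcript length) in at least 1 group. Bone marrow-derived macrophages (BMDM) came from male C57Bl6/J mice aged 6 to 12 weeks. BMDM-Nur77-KO carried a whole-body deletion of Nr4a1, the gene of Nur77, made by crossing mice with a loxP-flanked Nr4a1 to CMV-Cre mice and then breeding out the Cre, and BMDM-WT came from wild-type littermates. The labels write the knockout genotype as cre. All cells were grown in L929-conditioned medium and received 100 ng/ml LPS, a bacterial cell wall component, for 0, 1, 5 or 18 h, which gives 8 groups of 4 RNA-seq libraries. Cells were seeded in replicate and the number of mice behind them is not stated in the sources used here, so the p-values measure the spread between these libraries, which may be technical.

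GBPs are large GTPases that interferons induce strongly in macrophages. They assemble on vacuoles and membranes of intracellular bacteria and parasites and on LPS itself, help to expose microbial LPS and DNA to the caspase-11 and AIM2 inflammasomes, and limit the growth of the microbe. In the mouse the family lies in 2 gene clusters, and some members (Gbp2, Gbp2b and Gbp5) end in a CaaX box to which a lipid is attached, which anchors them to membranes.

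Library totals of the kept transcripts were 8742362 to 15780926 counts, with a median of 11847140. In BMDM-Nur77-KO, the targeted gene Nr4a1 was lower at 0 h (4.42 to 6.92 against 15.5 to 25.5 CPM, counts scaled to library size), 1 h (146 to 244 against 358 to 483 CPM) and 5 h, and the genotypes overlapped at 18 h, when no library exceeded 0.473 CPM. Its transcript was reduced and not absent, and which of its bases the deletion removes was not examined. Macrophage markers were high in every library, with 8 of 8 detected and summed levels of 11083 to 18723 CPM, while the summed markers of neutrophils (9 genes) reached 52.8 CPM, of B cells (6 genes) 4.73 CPM and of fibroblasts (6 genes) 1.89 CPM. The T and NK cell list (8 genes) reached 22.4 CPM, nearly all of it Cd4, and Cd3e, Cd3d, Cd3g, Ncr1 and Klrb1c had at most 5 counts in any library. Because these are bulk samples, fewer expressing cells and less RNA per cell cannot be told apart.

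In 3 knockout libraries most GBP genes stood at the top of their group. All 10 were highest in replicate 3 of BMDM-Nur77-KO at 1 h, where 23.1% of all genes were highest, 9 of 10 in replicate 1 at 5 h (40.2% of all genes) and 9 of 10 in replicate 4 at 18 h (41.1%). In BMDM-WT the closest case was replicate 3 at 18 h, with 9 of 10 members and 38.5% of all genes. Replicate 1 of BMDM-Nur77-KO at 5 h also had the lowest mean correlation with its group of all 32 libraries (r = 0.964 across genes). Results that rest on these libraries are given with and without them. The 3 knockout libraries were picked by the levels of the GBP genes themselves, so leaving them out lowers the knockout levels by construction. It also lowers the members' spread, which all groups of the fit share, so p-values of other comparisons can fall as well. The wild-type library just named was kept when the 3 were left out together.

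Of the 10 genes, 5 lie on chromosome 3 and 5 on chromosome 5 (GRCm38, mm10). On chromosome 3 the kept transcripts span 142496934 to 142522344 (Gbp5), 142530336 to 142550151 (Gbp7), 142560016 to 142573213 (Gbp3), 142594816 to 142619179 (Gbp2b) and 142620663 to 142638008 (Gbp2). On chromosome 5 they span 105012513 to 105053609 (Gbp8), 105076464 to 105110357 (Gbp9), 105115767 to 105139586 (Gbp4), 105215699 to 105239533 (Gbp10) and 105270702 to 105295871 (Gbp6). Gbp6 and Gbp10 are near-copies. Of the 150-base windows of their transcripts, 76.5% and 63.2% also occur in the other or in the related gene Gm43302. The share was 8.93% for Gbp7 (with Gm43802), 0.0456% for Gbp4 (with Gbp11) and 0 for the other 6. The authors filtered alignments on mapping quality, so reads shared by genes may have been dropped and not split. How the shared reads of Gbp6 and Gbp10 were counted is therefore uncertain, and the levels of both may be too low.

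RefSeq promoter windows, from 250 bases before to 50 bases after the annotated start (GRCm38.p6), were at hand for the 5 members on chromosome 3, in 6 windows. Distances are counted from the annotated start of each window. For Gbp2b and the printed window of Gbp3 this start is not that of the kept transcript given above. They were searched on both strands for 5 motifs, an interferon-stimulated response element (ISRE, GAAA, 2 free bases and GAAA), a gamma-activated site (GAS, TTCNNNGAA), an AP-1 site (TGANTCA), the Nur77 monomer site (NBRE, AAAGGTCA) and a kappaB core (GGG, 2 free bases and TTTCC). The stretches below are shown because each of the 5 genes has an ISRE match within 165 bases before its start, in 5 of the 6 windows, against 3.44% of all 32851 windows. Capitals mark the ISRE letters, which read on the opposite strand in all 5, and in Gbp3 they cover 2 overlapping matches.
Gbp5: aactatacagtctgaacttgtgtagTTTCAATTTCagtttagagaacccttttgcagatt
Gbp7: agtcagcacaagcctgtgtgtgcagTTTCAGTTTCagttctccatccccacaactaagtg
Gbp3: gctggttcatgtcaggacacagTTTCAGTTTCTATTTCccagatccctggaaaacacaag
Gbp2b: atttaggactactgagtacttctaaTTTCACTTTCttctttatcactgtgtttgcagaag
Gbp2: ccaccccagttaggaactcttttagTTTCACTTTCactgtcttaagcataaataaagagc
The stretches are 60 bases each on the plus strand, Gbp5 at chr3:142496744-142496803, Gbp7 at chr3:142530258-142530317, Gbp3 at chr3:142559977-142560036, Gbp2b at chr3:142594685-142594744 and Gbp2 at chr3:142620579-142620638. GAS letters were found at 2 places each in the windows of Gbp5 and Gbp7 (8.30% of all windows hold them), AP-1 letters in those of Gbp2 and Gbp2b (7.81%) and kappaB letters in that of Gbp5 (1.63%). NBRE letters (1.51% of all windows) were not in these 6 windows. These matches describe letters in a window and say nothing about binding in these cells. The windows of Gbp4, Gbp6, Gbp8, Gbp9 and Gbp10 were not analysed here.

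**Figure D1:**
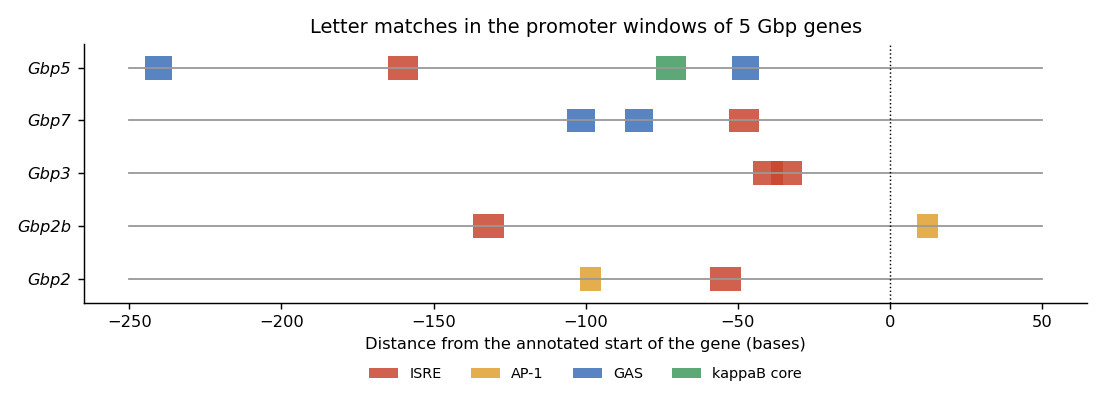
Positions of motif letter matches in the promoter windows of 5 GBP genes, drawn by distance from the annotated start (horizontal axis, bases), 1 line per gene and 1 box per match, coloured by motif. Each of the 5 genes has an ISRE box before its start, and GAS boxes appear in Gbp5 and Gbp7.

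In BMDM-WT, the GBP genes rose late and steeply. At 1 h, Gbp5 alone was higher among the 10 (quasi-likelihood test of edgeR, p adjusted over all 11186 genes by the Benjamini-Hochberg method and under 0.05, log2 fold change over 1), beside 3.46% of all genes tested. At 5 h all 10 were higher, against 16.1% of all genes, and at 18 h all 10 were higher, against 13.4%. The median log2 fold change of the members was 0.56 at 1 h, 5.69 at 5 h and 6.00 at 18 h, while that of all genes was -0.02, -0.13 and 0.00. These comparisons share the 0 h libraries.

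Gbp5, which promotes inflammasome assembly, had the largest change at 5 h. Its levels in the 4 BMDM-WT libraries were 14.4, 9.48, 16.0 and 11.3 CPM at 0 h, 48.5, 46.9, 42.6 and 45.2 CPM at 1 h, 4310 to 4571 CPM at 5 h and 1036 to 1265 CPM at 18 h. All 4 times were apart from each other. Gbp5 rose by 1.85 ± 0.20 (log2, SE) at 1 h (edgeR adjusted p = 9.24e-09), reached 8.42 ± 0.25 or 343-fold at 5 h (2.90e-23) and stood at 6.49 ± 0.23 above 0 h at 18 h (4.39e-21).

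Gbp2, a membrane-anchored GBP that coats pathogen vacuoles, was the most abundant member per length (RPKM) by its mean in every group. In CPM, which is not scaled to length, Gbp5 stood above it in 3 of the 4 BMDM-WT libraries at 5 h. It stood at 96.9, 69.6, 98.3 and 85.7 CPM at 0 h, 139, 135, 127 and 116 CPM at 1 h, 4230.3, 4126, 4402 and 4426 CPM at 5 h and 3326, 3558, 3980.1 and 3360 CPM at 18 h. All 1 h libraries lay above all 0 h libraries, but the change of 0.56 ± 0.25 did not pass the test (edgeR adjusted p = 0.123), and the rise at 5 h was 5.62 ± 0.30 (1.43e-16).

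Gbp2b, which also has a CaaX box, started from almost nothing. It had 0, 1, 2 and 2 counts at 0 h and 2, 3, 1 and 1 counts at 1 h, and reached 5.06, 5.51, 3.60 and 5.20 CPM at 5 h and 18.8, 24.4, 24.9 and 18.7 CPM at 18 h. Unlike Gbp2 and Gbp5, its highest level came at the last time point. With 5 counts over the 0 h group, the ratio to 0 h was 57.6 at 5 h (95% counting interval 24.2 to 180) and 258 at 18 h (110 to 797). These intervals cover counting error only.

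Of the other members on chromosome 3, Gbp3 rose from 13.4 to 18.5 CPM at 0 h to 1262 to 1464 CPM at 5 h, and Gbp7, which takes part in antibacterial defence, from 21.8 to 31.1 CPM to 767 to 890.2 CPM. At 1 h Gbp3 was 0.75 ± 0.21 higher, which passed the adjusted p (edgeR, 0.0111) but not the fold limit, so that without the limit 2 of 10 members were higher, against 10.4% of all genes. On chromosome 5, Gbp4 rose from 2.24 to 3.86 CPM at 0 h to 491 to 685 CPM at 5 h, a change of 7.63 ± 0.45 (edgeR adjusted p = 1.02e-15). Gbp9 rose from 30.0 to 44.0 CPM to 973 to 1313 CPM and Gbp6 from 3.64 to 6.05 CPM to 355 to 435 CPM. Gbp8 had the smallest change at 5 h, 2.53 ± 0.33 (6.16e-08), from 1.46 to 3.56 CPM to 10.6 to 18.4 CPM. Gbp10, with 0 to 4 counts per library at 0 h, reached 5.62 to 7.37 CPM at 5 h.

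**Figure D2:**
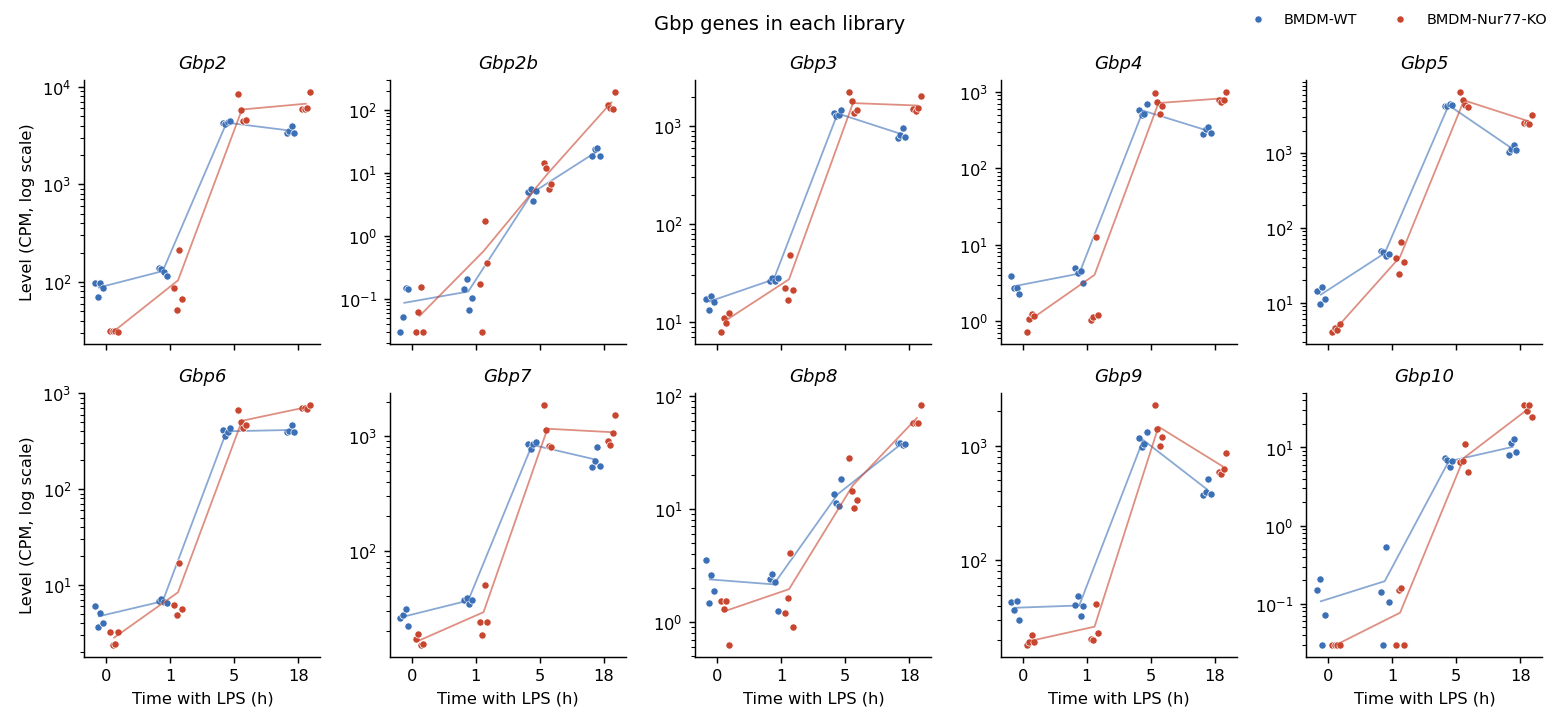
Level of each GBP gene in each of the 32 libraries (CPM on a log axis) by time with LPS (hours), with BMDM-WT in blue and BMDM-Nur77-KO in red. Points are libraries, lines join group means, and levels under 0.03 CPM are drawn at 0.03. Every member is higher at 5 and 18 h than at 0 h in both genotypes, and at 18 h all red points lie above all blue points.

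From 5 to 18 h the members of BMDM-WT went different ways. Gbp5 fell by 1.94 ± 0.18 (edgeR adjusted p = 1.03e-10) and Gbp9 by 1.43 ± 0.21 (4.96e-07). Gbp2b rose by 2.16 ± 0.31 (3.61e-07) and Gbp8 by 1.49 ± 0.27 (1.46e-05). These 2 lower and 2 higher members compare with 14.5% and 15.6% of all genes. Gbp3 (-0.70), Gbp4 (-0.86) and Gbp10 (0.61) passed the adjusted p without reaching the fold limit, and Gbp2 (-0.27), Gbp6 (0.05, and -0.0017 with DESeq2's size factors) and Gbp7 (-0.43) did not pass it.

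In BMDM-Nur77-KO the GBP genes rose as well. At 5 h and at 18 h all 10 members were higher than at 0 h, against 16.5% and 15.9% of all genes, with log2 fold changes of 3.68 (Gbp8) to 10.13 (Gbp5) at 5 h over the 8 members with more than 3 counts in some library of both groups. Gbp10 had 0 counts in all 4 libraries at 0 h, and against a floor of 3 counts over the group it was at least 130-fold higher at 5 h and at least 547-fold higher at 18 h. Gbp2b had 3 counts over the group at 0 h, and its ratio to 0 h was 171 at 5 h (95% counting interval 58.3 to 835) and 2353 at 18 h (805 to 11414). At 1 h 5 members were higher (Gbp2, Gbp3, Gbp4, Gbp5 and Gbp6), against 3.30% of all genes. Without replicate 3 at 1 h only Gbp2 and Gbp5 remained, against 3.18%, since Gbp3 (0.97) and Gbp6 (0.99) then missed the fold limit and Gbp4 stood at 0.08. Gbp4 also lost its call without replicate 1 or 2 at 0 h (1.79, edgeR adjusted p = 0.069, and 1.92, 0.063) and in the fit to the libraries compared (1.91, 0.125). Gbp2b gained one without replicate 2 at 1 h (edgeR adjusted p = 0.0206) and with DESeq2 (adjusted p = 0.00743), which called 6 members. Its counts at 1 h were 2, 0, 22 and 5, so this call rests mostly on replicate 3.

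**Figure D3:**
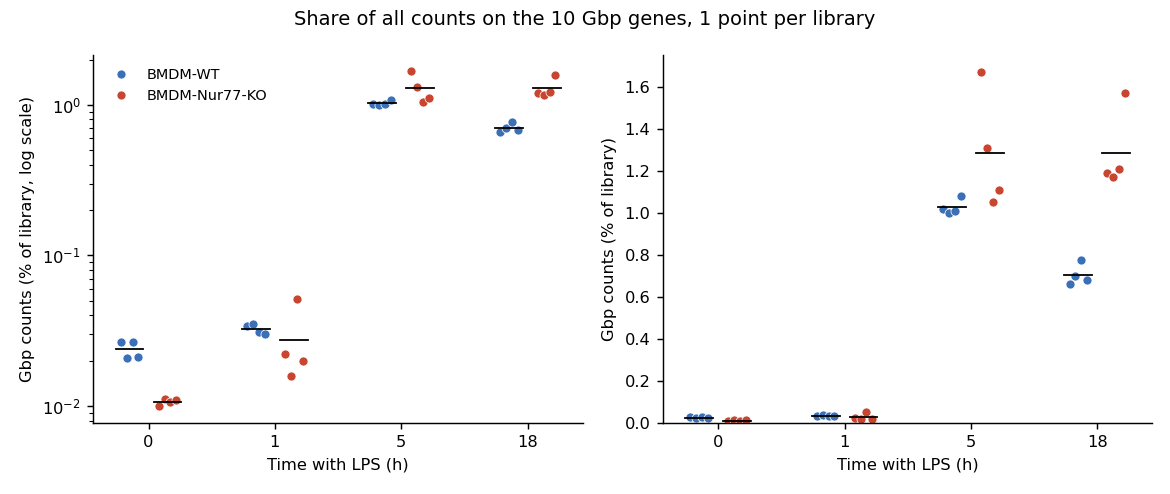
Counts on the 10 GBP genes as a percentage of all counts of a library, by time with LPS (hours), on a log axis (left) and on a linear axis from 0 (right). Points are libraries and bars are group means; the share in BMDM-Nur77-KO lies below that in BMDM-WT at 0 h and above it at 18 h.

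The share of all counts that fell on the 10 genes shows the same course for the family as a whole. It was 0.0208% to 0.0266% in BMDM-WT at 0 h and 0.00999% to 0.0112% in BMDM-Nur77-KO. At 5 h it was 0.998% to 1.08% in BMDM-WT and 1.05% to 1.67% in BMDM-Nur77-KO, and at 18 h 0.663% to 0.775% and 1.17% to 1.57%. The genotypes thus did not overlap at 0 h or 18 h and overlapped at 5 h, and at 1 h BMDM-Nur77-KO spanned 0.0157% to 0.0516% around the 0.0303% to 0.0349% of BMDM-WT. Its highest value was replicate 3 alone, and the other 3 knockout libraries (0.0157% to 0.0223%) lay below every wild-type library. Gbp2 alone took 32.6% to 49.4% of the family's counts, and Gbp5 went from 4.83% to 7.32% at 0 h to 28.4% to 34.8% at 5 h.

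Per length (RPKM), Gbp2 was the highest member in every group by its mean. In BMDM-WT at 0 h the order of mean levels was Gbp2 (34.8 RPKM), Gbp9 (8.78), Gbp3 (6.07), Gbp7 (4.75), Gbp5 (4.18), Gbp6 (1.81), Gbp8 (0.968), Gbp4 (0.634), Gbp2b and Gbp10 (both about 0.031), where Gbp9 overlapped with Gbp3, Gbp3 with Gbp7, Gbp7 with Gbp5, Gbp6 with Gbp8, Gbp8 with Gbp4 and Gbp2b with Gbp10. By 5 h Gbp5 had moved up to the place below Gbp2 (1428 RPKM, after Gbp2 with 1708), followed by Gbp3 (505), Gbp9 (256), Gbp6 (154), Gbp7 (149.8), Gbp4 (125), Gbp8 (5.48), Gbp10 (1.88) and Gbp2b (1.72). The neighbours that overlapped were then Gbp6 and Gbp7, Gbp7 and Gbp4, and Gbp10 and Gbp2b. At 18 h the order in BMDM-WT was Gbp2 (1413), Gbp5 (373), Gbp3 (310.0), Gbp6 (159), Gbp7 (111), Gbp9 (94.9), Gbp4 (68.8), Gbp8 (15.3), Gbp2b (7.69) and Gbp10 (2.88), with overlaps of Gbp5 with Gbp3 and Gbp7 with Gbp9. In BMDM-Nur77-KO at 18 h it was Gbp2 (2668), Gbp5 (879), Gbp3 (608), Gbp6 (274.5), Gbp7 (193), Gbp4 (181), Gbp9 (151), Gbp2b (47.4), Gbp8 (25.9) and Gbp10 (8.76), with overlaps among Gbp6, Gbp7, Gbp4 and Gbp9. Gbp2b stood apart above Gbp8 there and apart below it in BMDM-WT.

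The effect of Nur77 deficiency was compared at each time. Before LPS 3 of the 10 members were lower in BMDM-Nur77-KO, after 18 h all 10 were higher, and the 1 h and 5 h comparisons held few or no calls. For these comparisons the adjusted p had to be under 0.05 and the log2 fold change beyond 0.58 in size. Without the fold limit the members' counts were unchanged at all 4 times, with 3 lower at 0 h (against 6.65% of all genes), 0 at 1 h (3.44% higher and 3.03% lower), 1 higher at 5 h (13.2%) and 10 higher at 18 h (12.3%).

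At 0 h Gbp2, Gbp5 and Gbp9 were lower in BMDM-Nur77-KO, 3 of 10 members against 2.49% of all genes. Gbp2 stood at 31.1, 31.7, 31.7 and 30.8 CPM in BMDM-Nur77-KO against 69.6 to 98.3 CPM in BMDM-WT, a difference of -1.48 ± 0.26 (edgeR adjusted p = 2.23e-04). Gbp5 had 4.07, 4.50, 4.27 and 5.19 CPM against 9.48 to 16.0 CPM (-1.49 ± 0.23, 2.66e-05), and Gbp9 had 18.3, 19.3, 22.2 and 19.3 CPM against 30.0 to 44.0 CPM (-0.96 ± 0.22, 0.00382). In all 3 every knockout library lay below every wild-type library.

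The same separation held for Gbp3 (7.96 to 12.4 against 13.4 to 18.5 CPM), Gbp4 (0.724 to 1.22 against 2.24 to 3.86 CPM), Gbp6 (2.38 to 3.26 against 3.64 to 6.05 CPM) and Gbp7 (15.1 to 18.9 against 21.8 to 31.1 CPM). The groups of 7 of 10 members therefore did not overlap at 0 h, against 13.4% of all genes for this direction. The differences of these 4 were -0.65, -1.43, -0.73 and -0.69 with edgeR adjusted p of 0.0534, 0.121, 0.0957 and 0.0772. They passed in a fit to the libraries compared only (7 members lower), DESeq2 called 5, and with replicate 3 of the knockout at 1 h left out, which then no longer entered the shared estimate of spread, 7 were called. That library was picked by the levels of these same genes, so leaving it out lowers their spread by construction. The count without it therefore cannot decide whether more members were lower. With replicate 4 of BMDM-Nur77-KO or replicate 2 of BMDM-WT at 0 h left out, Gbp3 was called as well (-0.75, edgeR adjusted p = 0.040, and -0.74, 0.0428). Gbp8 overlapped (0.629 to 1.54 against 1.46 to 3.56 CPM), Gbp2b had at most 2 counts in any library of either genotype, and Gbp10 had 0 counts in the knockout and 0 to 4 in the wild type.

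At 1 h edgeR and DESeq2 called 0 of 10 members (2 had an unadjusted p under 0.05 in edgeR), where 1.47% of all genes were higher and 1.35% lower, and the genotypes overlapped in all 10. The knockout group held its replicate 3 far above the rest. Gbp4 was at 1.03, 1.12, 12.7 and 1.20 CPM there against 3.14 to 4.90 CPM in BMDM-WT, and Gbp2 at 86.1, 52.0, 210.1 and 66.6 CPM against 116 to 139 CPM. Without that library Gbp2 (-0.92, edgeR adjusted p = 0.00134), Gbp4 (-1.91, 3.62e-05) and Gbp9 (-0.92, 0.00712) were called lower in BMDM-Nur77-KO, against 1.30% of all genes, and Gbp9 alone was called when replicate 1 of the knockout at 5 h was left out (-0.61, 0.0321). Replicate 3 was singled out by these same genes, so leaving it out lowers their knockout levels and their spread by construction. The p-values without it therefore cannot decide whether these members were lower at 1 h.

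**Figure D4:**
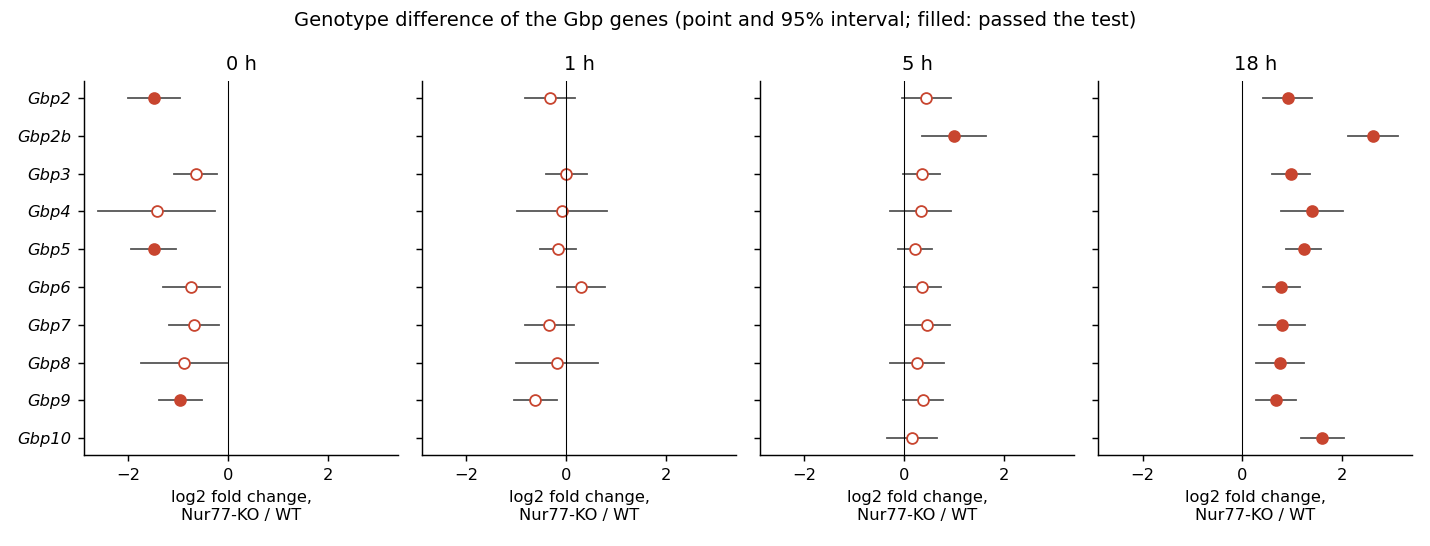
Log2 fold change of BMDM-Nur77-KO over BMDM-WT for the GBP genes at each time with LPS, with points for the estimate, lines for its unadjusted 95% interval and filled points for members that passed the test. Gbp2b and Gbp10 are left out at 0 and 1 h, where they had few counts; 3 points are filled left of 0 at 0 h and all 10 right of 0 at 18 h.

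At 5 h Gbp2b was higher in BMDM-Nur77-KO, 1 of 10 members against 5.44% of all genes. Its knockout levels were 14.6, 12.1, 5.51 and 6.70 CPM against 5.06, 5.51, 3.60 and 5.20 CPM, so the groups touched, and the difference of 1.01 ± 0.33 (edgeR adjusted p = 0.0269) was lost with DESeq2 (adjusted p = 0.0939), in the fit to the libraries compared only (0.113) and without replicate 1 (0.131) or 2 (0.0865) of BMDM-Nur77-KO or replicate 1 (0.0523) or 3 (0.083) of BMDM-WT at 5 h. The other 9 had estimates of 0.15 to 0.47, none of which passed, and Gbp7 passed only without replicate 4 of BMDM-Nur77-KO (0.61, edgeR adjusted p = 0.0483). Gbp2 was the only member whose genotypes did not overlap at 5 h, with 4471 to 8540.2 CPM in the knockout above 4126 to 4426 CPM, which 8.98% of all genes also showed, and its difference of 0.45 ± 0.25 did not pass (0.183).

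At 18 h all 10 members were higher in BMDM-Nur77-KO, against 5.86% of all genes, and in all 10 the groups did not overlap, against 11.1% of all genes. The median difference was 0.94, compared with 0.00 over all genes. Gbp2b differed most. It was at 120.7, 111, 106 and 198 CPM against 18.8, 24.4, 24.9 and 18.7 CPM, a difference of 2.62 ± 0.26 or 6.17-fold (edgeR adjusted p = 3.45e-09).

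Gbp10 was next with 35.1, 29.1, 35.2 and 24.2 CPM against 7.91, 11.2, 12.8 and 8.75 CPM (1.60 ± 0.22, edgeR adjusted p = 2.90e-06). Its near-copy Gbp6 was at 709.6, 702, 688 and 759.6 CPM against 395, 402, 465 and 396 CPM (0.79 ± 0.19, 0.00296). Both genes of this pair were thus higher, with the counting of their shared reads uncertain.

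Gbp4, reported to act on interferon regulatory factor signalling, was at 779, 731, 774 and 1004 CPM against 281 to 352 CPM (1.40 ± 0.32, edgeR adjusted p = 0.00151). Gbp5 was at 2508, 2519.5, 2482 and 3234 CPM against 1036, 1143, 1265 and 1112 CPM (1.24 ± 0.18, 3.77e-06). Gbp3 had 1426 to 2043 CPM against 768 to 965 CPM (0.97 ± 0.19, 3.45e-04), and Gbp2 5990.4, 5889, 6063 and 8909 CPM against 3326 to 3980.1 CPM (0.92 ± 0.25, 0.00765). In each of these the highest knockout library was replicate 4, and the other 3 also lay above all wild-type libraries.

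Gbp7 (841.6 to 1527 against 543 to 801 CPM, 0.80 ± 0.23), Gbp8 (57.0 to 83.3 against 37.1 to 38.2 CPM, 0.76 ± 0.24) and Gbp9 (564 to 867 against 371 to 512 CPM, 0.67 ± 0.21) had the highest adjusted p of the 10, with edgeR values of 0.0131, 0.0251 and 0.0177. With replicate 4 of the knockout at 18 h left out these 3 were no longer called (0.59, 0.60 and 0.52 with 0.0843, 0.0969 and 0.0923), and 7 of 10 members remained, against 5.28% of all genes. Gbp8 also missed without replicate 1, 2 or 4 of BMDM-WT at 18 h (0.76, 0.76 and 0.75 with 0.0569, 0.0522 and 0.0591) and with DESeq2 (adjusted p = 0.0602), and Gbp9 without replicate 1 or 4 of BMDM-WT (0.62 and 0.63 with 0.0598 and 0.0542). With all 3 knockout libraries named above left out together, a choice made after seeing the data, 9 of 10 were called and Gbp9 missed the fold limit (0.52). The summed dendritic cell markers (6 genes, mostly Xcr1 and Clec9a) were also higher at 18 h, at 13.5 to 21.8 CPM in BMDM-Nur77-KO and 5.15 to 7.17 CPM in BMDM-WT, with Flt3, Siglech and Cd209a at no more than 5 counts in any library. The summed macrophage markers were lower at 18 h, at 11083 to 12693 CPM in BMDM-Nur77-KO and 14118 to 14615 CPM in BMDM-WT. They were already lower at 5 h, at 13116 to 16260 CPM in BMDM-Nur77-KO and 16581 to 18251 CPM in BMDM-WT, and overlapped at 0 and 1 h. The part of either marker list in the GBP difference was not tested.

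Because the genotypes started from different levels, the change over time was compared between them directly, as the interaction of genotype and time. From 0 to 1 h no member passed this test, where 0.0447% of all genes differed in this direction (edgeR, 0 of 10 with an adjusted and 4 of 10 with an unadjusted p under 0.05, and DESeq2 called 1). Gbp5 was nearest with 1.33 ± 0.29 (edgeR adjusted p = 0.0943), and passed without replicate 2 of the knockout at 1 h (1.51, 0.00595) or replicate 2 of BMDM-WT at 0 h (1.45, 0.0484). From 0 to 5 h the rise was larger in BMDM-Nur77-KO for Gbp2 (1.93 ± 0.36, 0.00183), Gbp5 (1.71 ± 0.29, 5.96e-04) and Gbp9 (1.34 ± 0.30, 0.00959), against 1.81% of all genes. These are the members called lower in BMDM-Nur77-KO at 0 h. Their genotype differences at 5 h (0.45, 0.22 and 0.38) did not pass, so the larger rise rests largely on the lower 0 h levels. DESeq2 and the fit to the libraries compared each called 6. Without replicate 3 or 4 of BMDM-Nur77-KO at 5 h Gbp3 (1.09 and 1.07, edgeR adjusted p = 0.0336 and 0.0401) and Gbp7 (1.29 and 1.30, 0.0301 and 0.0282) were added, Gbp3 also without replicate 4 at 0 h (1.10, 0.0493), and 7 were called without replicate 3 at 1 h. The library last named was picked by these genes, so leaving it out lowers their spread by construction and that count decides nothing further.

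From 0 to 18 h the rise was larger in BMDM-Nur77-KO for 9 of 10 members, against 5.72% of all genes. Gbp4 (2.83 ± 0.67), Gbp5 (2.73 ± 0.29) and Gbp2 (2.40 ± 0.36) had the largest differences among members counted at 0 h in both genotypes, with edgeR adjusted p of 0.00476, 1.16e-07 and 2.83e-05, and Gbp3, Gbp6, Gbp7, Gbp8 and Gbp9 had 1.49 to 1.64. These values hold both the lower knockout levels at 0 h and the higher ones at 18 h. The genotype differences at 0 h and 18 h were -1.43 (which did not pass) and 1.40 for Gbp4, -1.49 and 1.24 for Gbp5, and -1.48 and 0.92 for Gbp2. The call of Gbp10 (edgeR adjusted p = 0.0431) rests on a knockout group of 0 counts and was lost in 12 of 16 fits that left out 1 library, with adjusted p up to 0.179. That of Gbp8 (0.0328) was lost in 5 of 16, without replicate 2 or 4 of BMDM-Nur77-KO or replicate 1 or 3 of BMDM-WT at 0 h, or replicate 4 of BMDM-Nur77-KO at 18 h (1.39 to 1.68, up to 0.108). Gbp2b, with its few counts at 0 h, did not pass.

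The step from 5 to 18 h does not involve the 0 h libraries. In BMDM-Nur77-KO, Gbp2b (3.78 ± 0.28), Gbp10 (2.07 ± 0.23) and Gbp8 (1.98 ± 0.26) rose over it, 3 of 10 against 14.3% of all genes, and Gbp9 fell by 1.15 ± 0.21, 1 of 10 against 14.3%. Without replicate 1 at 5 h, Gbp9 stood at -0.85, short of the fold limit, and without replicate 4 at 18 h Gbp5 reached it (-1.02, from -0.92 ± 0.18). The difference between the genotypes over this step was positive for Gbp2b (1.62 ± 0.42, edgeR adjusted p = 0.00815), Gbp10 (1.45 ± 0.34, 0.00361) and Gbp5 (1.02 ± 0.25, 0.00511), 3 of 10 against 7.76% of all genes. For Gbp5 this was a smaller fall in the knockout than in the wild type, and for Gbp2b and Gbp10 a larger rise. When replicate 1 of the knockout at 5 h was left out, Gbp3 (0.78, 0.0388), Gbp4 (1.25, 0.0331) and Gbp8 (0.89, 0.0482) joined them, and with the 3 knockout libraries left out 8 were called. DESeq2 gave Gbp2b an adjusted p of 0.095.

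The surrounding pathway was read from lists of known genes. Of 18 interferon ligand, receptor and signalling genes, 16 were higher in BMDM-WT at 5 h (16.1% of all genes) and Ifngr1 was lower (-1.38, beside 17.4% of all genes), with a list median of 2.41. Between the genotypes, 2 were lower in BMDM-Nur77-KO at 0 h, the transcription factors Irf1 (-0.81) and Irf7 (-0.92), and the list median was -0.20 against -0.03 over all genes. At 1 and 5 h edgeR and DESeq2 called 0 of 18, with 1 and 7 at an unadjusted p under 0.05 in edgeR. At 18 h 4 were higher and 1 lower, against 5.86% and 3.95% of all genes, with a median of 0.29 against 0.00.

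Ifnb1, the gene of interferon beta, had 0 counts in all libraries of both genotypes at 0 h. At 1 h it was at 19.3 to 26.8 CPM in BMDM-Nur77-KO and 18.9 to 22.9 CPM in BMDM-WT, at 5 h at 3.66 to 5.52 and 2.72 to 4.83 CPM, and at 18 h at 5.06 to 5.98 and 1.89 to 2.45 CPM, a difference of 1.34 (edgeR adjusted p = 4.59e-06). The genotypes were thus apart at 18 h and overlapped at 1 and 5 h. Irf1, a factor that interferon induces and that binds ISREs, was 0.73 higher at 18 h (665 to 751 against 400.3 to 453 CPM, 3.60e-07). Jak2 (0.86) and Socs1 (0.96, the feedback inhibitor of JAK kinases) were also higher. Ifngr1, the ligand-binding chain of the interferon gamma receptor, was 0.71 lower (69.2 to 77.6 against 113 to 127 CPM, 2.55e-07), and Ifng itself had at most 33 counts in any library.

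Among the 8 immunity-related GTPases, the other GTPase family that acts on pathogen vacuoles, all 8 were higher in BMDM-WT at 5 h, against 16.1% of all genes, led by Tgtp1 (7.28) and Iigp1 (6.82). At 0 h 6 of 8 were lower in BMDM-Nur77-KO, against 2.49% of all genes, with a list median of -0.72, and the exceptions were Tgtp1 (-1.33, edgeR adjusted p = 0.152) and Irgm1 (-0.49, 0.00281, short of the fold limit). At 18 h 2 of 8 were higher, against 5.86% of all genes, Tgtp1 (1.05, 2.68e-05) and Iigp1 (0.87, 0.0477), DESeq2 called 1, and the list median was 0.43. Irgm1 and Irgm2, regulators within the family, were 0.42 higher each, which passed the adjusted p (0.00408 and 0.0043) but not the fold limit. Without that limit 6 of 8 were higher at 18 h, against 12.3% of all genes. The rise from 0 to 5 h was larger in BMDM-Nur77-KO for 5 of 8, against 1.81% of all genes. From 0 to 18 h it was larger for 7 of 8, against 5.72%. The list medians and the GBP medians were below 0 at 0 h and above 0 at 18 h.

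**Figure D5:**
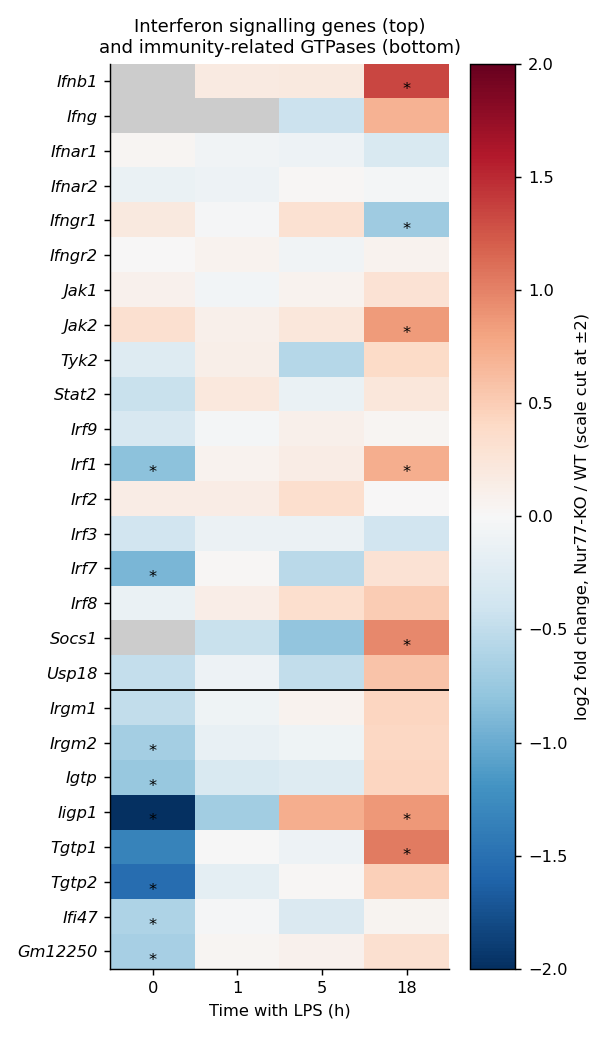
Log2 fold change of BMDM-Nur77-KO over BMDM-WT at each time with LPS (columns, hours) for 18 interferon signalling genes and 8 immunity-related GTPases (rows). Red is higher and blue lower in BMDM-Nur77-KO on a scale held within 2 either way, stars mark genes that passed the test, and grey marks cells where a group had at most 3 counts in every library; the stars at 0 h are on blue cells, and at 18 h all but that of Ifngr1 are on red cells.

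Of 13 inflammasome and pyroptosis genes, with which GBPs act, 10 were higher in BMDM-WT at 5 h, against 16.1% of all genes, among them Il1b (9.06) and the nucleic acid sensor Zbp1 (4.98). At 18 h 4 of 13 were higher in BMDM-Nur77-KO, against 5.86% of all genes. These were the cytokines Il1b (1.31, edgeR adjusted p = 1.07e-08) and Il18 (0.99, 8.39e-06), Casp4 (0.79), which encodes caspase-11, and Aim2 (0.86). Pycard, the adaptor ASC, was lower (-0.69, 9.90e-06, beside 3.95% of all genes), and the list median was 0.22.

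The last lists held the enzymes that attach or process the CaaX lipid and those that conjugate ATG8 proteins, which direct GBPs to vacuoles. Of 8 prenylation and CaaX genes, only Pggt1b, a geranylgeranyl transferase subunit, was higher in BMDM-WT at 5 h (1.06, beside 16.1% of all genes), with Zmpste24 at 0.37. At 18 h the farnesyl transferase subunit Fntb (-0.77, edgeR adjusted p = 0.0024) and Fdps, which makes farnesyl diphosphate (-0.85, 0.00104), were lower in BMDM-Nur77-KO, 2 of 8 against 3.95% of all genes, and Pggt1b did not pass (0.46, 0.064). Of 11 ATG8 conjugation genes, 2 were higher at 5 h in BMDM-WT, Atg16l1 (1.46) and Sqstm1 (1.13), and 2 lower, Atg7 (-1.09) and Gabarapl1 (-1.11), close to the 16.1% and 17.4% of all genes. At 5 h Atg3 was higher in BMDM-Nur77-KO (0.69, edgeR adjusted p = 0.0167), 1 of 11 against 5.44% of all genes. Between the genotypes at 18 h edgeR and DESeq2 called 0 of 11 (2 at an unadjusted p under 0.05 in edgeR), with Atg12 (0.21, edgeR adjusted p = 0.0461) the nearest, followed by Atg5 (-0.16, 0.118) and Atg3 (0.40, 0.18).

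Over the 32 libraries the members' log2 levels correlated with each other by r = 0.846 (Gbp2b with Gbp9) to 0.997 (Gbp3 with Gbp7), and Gbp2b was the least alike member for 7 of the other 9. The genes outside the family whose levels followed the mean of the members most closely were Herc6 (r = 0.994), Tgtp2 (0.993), Cp (0.992), Lacc1 (0.992) and Ifit2 (0.991). These values describe libraries that share the rise with LPS. Herc6, an interferon-induced ubiquitin ligase relative, was at 27.4 to 32.2 CPM in BMDM-WT at 0 h and 729 to 1040 CPM at 18 h, and at 1002 to 1374 CPM in BMDM-Nur77-KO at 18 h (0.48, edgeR adjusted p = 0.00657, short of the fold limit). Its genotypes overlapped at 18 h, and those of Tgtp2, Cp, Lacc1 and Ifit2 did not. Lacc1 was called higher there (0.69, edgeR adjusted p = 1.34e-06). Ifit2 (0.53, edgeR adjusted p = 0.0173) and Cp (0.36, 0.0409) passed the adjusted p but not the fold limit. Tgtp2 (0.47, 0.133) passed neither. At 0 h Tgtp2 (-1.53, edgeR adjusted p = 3.62e-04) and Ifit2 (-0.581, 0.0188) were called lower, and Herc6, Cp and Lacc1 did not pass.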

How the data were processed

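RNA-seq was measured in 32 libraries, 4 for each genotype and time, grouped by the titles of the labels. For the deposited table the authors mapped read pairs against mm10 by HISAT2 (2.1.0 per the submitters' processing notes), filtered on mapping quality and let HOMER sum tags per RefSeq transcript. It holds estimated counts, deposited without normalization, all multiples of 0.5, and 28.6% of them are not whole. The libraries were strand-specific, and whether the counting used the strand is not given in the sources used here, so reads of antisense transcripts could not be told apart. Depth was 8742362 to 15780926 counts per library.

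Of 42361 transcripts, 42198 were named through RefSeq and 70 through GENCODE, and 93 unnamed ones (0.233% to 1.37% of the tags) were left out. Each gene was represented by its transcript of highest mean count, rounded to a whole number. CPM and RPKM are scaled by TMM. edgeR 4.0.16 (R 4.3.3) fitted its quasi-likelihood model, 1 mean per group, to the 11186 genes whose mean exceeded 1 RPKM in some group, and adjusted by the Benjamini-Hochberg method over all of them. A run on simulated data used the BMDM-WT means at 18 h for every group, with set changes in some genes and 1 fixed spread. It does not cover the LPS changes or libraries that stand apart. LPS calls needed a log2 fold change over 1, genotype calls over 0.58, and interactions an adjusted p under 0.05. Errors are SE, and a bound against a group of 0 counts uses 3 counts over that group.

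The alternatives were DESeq2 1.42.0, its size factors, filterByExpr, no filter, fits with only the groups compared, a replicate block, counts summed over transcripts, no fold limit, and leaving out each library. Leaving out 3 knockout libraries together was added after seeing the data. The members, gene lists and tests were chosen with earlier results of these data known. The genes named were the members, Nr4a1, of each list the 3 with the lowest adjusted p between genotypes at 18 h and the 2 with the largest change in BMDM-WT at 5 h, and the 5 genes most like the family mean. An item of the interferon list is not reported here and was left out of its counts. Other list genes were named after their values were seen.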

Additional observations from a re-analysis of the deposited data

Results flagged for a closer look

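In 9 of 75 groups of 4 libraries, 1 library stood further from the rest than Dixon's 95% critical value allows, where chance gives about 1 in 20. The 75 groups are not independent, since the members were measured in the same libraries and correlate with each other. A library that stands apart can be flagged for several members at once, so the count of flags cannot be held against that rate. Of these, 4 were in replicate 3 of BMDM-Nur77-KO at 1 h. They were Gbp4 at 12.7 CPM (10.6 times the highest of the others), Gbp6 at 16.9 CPM (4.85 to 6.19 in the others), Gbp7 at 50.6 CPM (18.4 to 23.6 in the others) and Gbp9 at 41.2 CPM (20.3 to 23.2 in the others). Another 4 were in replicate 4 of BMDM-Nur77-KO at 18 h, with Gbp2 at 8909 CPM, Gbp2b at 198 CPM, Gbp5 at 3234 CPM and Gbp8 at 83.3 CPM. The last was Gbp6 at 465 CPM in replicate 3 of BMDM-WT at 18 h, where the other 3 lay between 395 and 402 CPM.

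The change over time differed between the genotypes by the test of the interaction in 15 cases. From 0 to 5 h these were Gbp2 (1.93 on the log2 scale), Gbp5 (1.71) and Gbp9 (1.34). From 0 to 18 h they were Gbp2 (2.40), Gbp3 (1.62), Gbp4 (2.83), Gbp5 (2.73), Gbp6 (1.52), Gbp7 (1.49), Gbp8 (1.64), Gbp9 (1.63) and Gbp10. The fitted value of Gbp10, 5.22, depends on the prior count, since its knockout libraries had 0 counts at 0 h, and is no bound. From 5 to 18 h they were Gbp2b (1.62), Gbp5 (1.02) and Gbp10 (1.45).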

How the results depend on the processing

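The calls of all 10 members at 5 h and at 18 h against 0 h, in both genotypes, held under every alternative run. With DESeq2, 5 members were lower in BMDM-Nur77-KO at 0 h (3 with edgeR), 0 higher at 5 h (1), 1 differed in its change from 0 to 1 h (0) and 6 in that from 0 to 5 h (3). With only the libraries compared, these counts were 7, 0, 1 and 6, and 1 member was lower at 1 h. Over all genes that fit called, between genotypes at 5 h, 185 and 128 genes higher and lower (609 and 354 in the fit to all libraries), 123 and 220 with a larger or smaller change from 0 to 1 h (5 and 2, with 4 and 3 by DESeq2's size factors, 15 and 22 by DESeq2, 4 and 1 by filterByExpr and 3 and 0 with no filter), 86 and 79 from 0 to 5 h (202 and 149, with 261 and 257 by DESeq2 and 142 and 94 with no filter) and 519 and 310 from 5 to 18 h (868 and 634). With no fold limit 2 members were higher at 1 h in BMDM-WT. With the 3 knockout libraries named in the report (replicate 3 at 1 h, 1 at 5 h and 4 at 18 h) left out together, 8 members were lower at 0 h and 4 at 1 h, 2 were higher at 1 h in BMDM-Nur77-KO, and the changes of 1, 7 and 8 members differed from 0 to 1 h, 0 to 5 h and 5 to 18 h. Over all genes this gave 349 higher and 243 lower at 5 h, and 12 and 6, 339 and 224, and 1193 and 783 (640 and 417 with all libraries) for the changes from 0 to 1, 5 and 18 h.

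Leaving out 1 library of the groups compared at a time gave 3 to 4 members lower in BMDM-Nur77-KO at 0 h, 0 to 3 lower at 1 h, 0 to 2 higher at 5 h and 7 to 10 higher at 18 h. It gave 2 to 6 members higher at 1 h in BMDM-Nur77-KO and 0 to 2 lower there from 5 to 18 h. The members whose change differed numbered 0 to 1 from 0 to 1 h, 3 to 5 from 0 to 5 h, 7 to 9 from 0 to 18 h and 3 to 6 from 5 to 18 h. Leaving out a knockout library outside the comparison also moved counts. Without replicate 3 at 1 h, 7 members were lower at 0 h and the change of 7 differed from 0 to 5 h, and without replicate 1 at 5 h, 5 were lower at 0 h and 1 at 1 h. Both libraries were picked by the GBP levels, so leaving them out lowers the members' spread by construction.

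Differences that changed sign were not called in the fit to all libraries, and the cause was not tested. Between genotypes at 1 h, Gbp3 went from 0.00 to -0.027 with the replicate block and to -0.43 without the 3 libraries, and Gbp6 from 0.30 to -0.29 without them. Single libraries moved these 2 over -0.43 to 0.18 and -0.29 to 0.50 at 1 h, Gbp4 over -1.91 to 0.24, Gbp5 over -0.49 to 0.023 and Gbp8 over -0.81 to 0.065. At 5 h Gbp8 reached -0.14 without the 3 libraries and ranged from -0.14 to 0.45 over single ones, and Gbp10 from -0.12 to 0.30. The interaction at 1 h was -0.49 for Gbp4 and -0.058 for Gbp7 without the 3 libraries, and single ones gave -0.48 to 1.67 and -0.056 to 0.52. From 5 to 18 h, Gbp7 in BMDM-Nur77-KO was at 0.022 without the 3 libraries, with single ones giving -0.31 to 0.23 and, for Gbp3, -0.21 to 0.074. Gbp6 in BMDM-WT was at -0.0017 with DESeq2 and -0.0017 with its size factors over this step, and at -0.014 to 0.087 over single libraries. In BMDM-WT at 1 h single libraries moved Gbp8 over -0.28 to 0.18, Gbp9 over -0.037 to 0.16 and Gbp10 over -0.51 to 1.36.

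Replicate numbers did not pair the libraries (r of -0.70 to 0.47 over 112 same-numbered pairs, 29 above 0.1, and 2 of 32 libraries correlated best with their own number), and a fit with the replicate number as a block called the same number of members in each comparison, such as 10 higher at 18 h and 3 lower at 0 h. Depth limits Gbp2b at 0 and 1 h and Gbp10 at 0 and 1 h, where a library held at most 22 counts. Gbp6 and Gbp10 cannot be counted apart with certainty, and the number of mice is not stated.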
